A study of Mus musculus with 9 samples.

Results

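The Nduf genes encode the nuclear part of complex I (NADH:ubiquinone oxidoreductase), the entry point of the mitochondrial respiratory chain. They were taken as all gene symbols beginning with Nduf in the deposited log2 CPM table (CPM, counts scaled to a fixed library total), which gave 44 of its 14592 named rows. Of these, 36 encode structural subunits, 7 encode assembly factors named Ndufaf, and the remaining one is Ndufa4l2, which belongs to neither group. As a second measure, the estimated counts of all transcripts of a gene were summed. The files held transcripts of 51 Nduf symbols. Of the 7 outside the table, 4 passed the low-count filter of the sums: Ndufa4, Ndufaf8, Ndufb1-ps and Ndufb4c.

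Complex I oxidizes NADH in the mitochondrial matrix, passes the electrons through a flavin and a chain of iron-sulfur clusters to ubiquinone, and pumps protons across the inner membrane. Its peripheral arm stands in the matrix and its other arm lies in the membrane, where the proton-pumping subunits are made inside the mitochondrion from mitochondrial DNA. The nuclear genes supply the catalytic core of the matrix arm, the accessory subunits around both arms, and the assembly factors, which help to build the complex without staying in it. Neurons rely on this chain for most of their ATP.

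RNA sequencing (RNAseq) data were obtained from wild-type C57Bl/6 male mice at postnatal day 21. The tissue was the mediobasal hypothalamus (MBH), which holds the arcuate feeding circuits. The offspring of dams drinking water (CTRL, 4 libraries) were compared with the offspring of dams given 1% carboxymethylcellulose (CMC) and 1% polysorbate 80 (P80) in the drinking water (Emul, 5 libraries). According to the methods, the dams were treated before pregnancy and through gestation and lactation and the pups stayed with them, so direct intake by the pups cannot be told apart from exposure through the dam. The libraries came from separate litters. The tissue is a dissected region with many cell types, in which fewer cells of a type and less RNA per cell cannot be told apart.

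The libraries held 28245360 to 46067534 estimated counts. Of the 9 marker genes of the arcuate nucleus and MBH, 8 passed the low-count filter, all except Kiss1. Emul 2 stood apart for short transcripts. Over the 532 genes with an effective transcript length under 549 bases, the median of the structural subunits, its median deviation from the 9-library mean was 0.169 log2, against −0.003 for the longer genes. CTRL 3, the shallowest library, lay on the other side, with a median deviation of −0.094 for the short genes. The 7 neuronal markers summed to 2840 to 3050 CPM in CTRL and 3020 to 3250 in Emul, and at an unadjusted p under 0.05 in the sums 5 were higher and 1 lower. The 6 oligodendrocyte markers summed to 13200 to 16500 in CTRL and 10000 to 13900 in Emul, and 5 were lower at that threshold. Astrocyte markers did not overlap between the groups (1370 to 1500 in CTRL, 1200 to 1340 in Emul), although 1 of 5 passed the threshold. All 4 thalamus markers had a higher mean in Emul (212 to 270 summed CPM in CTRL and 230 to 363 in Emul, median log2 difference 0.407), and 1 passed the threshold. All 5 erythroid markers did as well (231 to 660 and 390 to 814, median 0.443), and none passed the threshold by limma-voom. Over all genes in the sums, 6.84% were higher and 8.99% lower at the unadjusted threshold. The part of these markers and of transcript length in the results below was not tested, except where a length-corrected value is given.

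For Ndufa9 and Ndufb4 the sequence itself matters for what was counted. The gene Ndufa9 (chromosome 6, 126821721 to 126849136, minus strand, mm10) has a pair of protein-coding transcripts that start their coding sequence in different places. In Ndufa9-203 the start codon is in the first exon. In Ndufa9-201 it is in a 5′ extension of the second exon. The coding starts from the GENCODE M21 transcripts are shown because the split between these transcripts carries the largest difference among the Nduf genes of the table. The capitals mark the coding bases found in that transcript only, and the lower case marks the first 21 bases of the coding part that both share.
Ndufa9-201: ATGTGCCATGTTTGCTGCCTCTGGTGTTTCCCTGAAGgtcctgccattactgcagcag
Ndufa9-203: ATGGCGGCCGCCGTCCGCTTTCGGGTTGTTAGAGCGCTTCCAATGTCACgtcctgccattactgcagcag
The own part of Ndufa9-201 spans 37 bases (chr6:126844962-126844998) and that of Ndufa9-203 spans 49 bases (chr6:126849064-126849112). They differ by 12 bases, so the shared 1085 coding bases are read in the same frame.

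The other pair is Ndufb4 (chromosome 16, 37647170 to 37654453, minus strand), a membrane-arm subunit, and Ndufb4c (chromosome 15, 73809507 to 73809896, minus strand), annotated as a processed pseudogene. The first 60 coding bases of Ndufb4-201 and the first 60 bases of Ndufb4c-201 are shown because reads from them cannot be told apart. There are no differing bases to capitalize.
Ndufb4-201: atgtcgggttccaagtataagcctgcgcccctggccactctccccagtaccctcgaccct
Ndufb4c-201: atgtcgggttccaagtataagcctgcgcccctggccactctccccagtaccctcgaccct
The identity held over all 390 bases of the Ndufb4 coding sequence, which is the whole length of Ndufb4c.

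To ask whether maternal emulsifier consumption was accompanied by a change in nuclear complex I genes of the pups, Emul was compared with CTRL by limma in the deposited table and by limma-voom on the gene sums. The differences were small and mostly positive. In the table, 31 of 36 structural subunits had a higher mean in Emul, with a median log2 difference of 0.065 against 0.00 over all rows. In the sums, 29 of 36 did, with a median of 0.051 against 0.002 over all genes. At an unadjusted p under 0.05 in the table, 6 structural subunits (16.7%) rose and none fell, while the background over all rows was 6.05% higher and 7.42% lower. Among these 6 are Ndufa9, Ndufs4 and Ndufa6, whose table values appear to cover only part of their transcripts. Of their counts, 89.4%, 75.5% and 16.0% were on transcripts outside that part, as described below. In the sums only Ndufv2 rose and none fell (2.78% of 36), against a background of 6.84% higher and 8.99% lower. The count in the sums was 10 without Emul 3 and 2 without CTRL 1, CTRL 2, Emul 4 or Emul 5. Without Emul 3, 1016 of all 15277 genes were higher and 1254 lower. Without CTRL 1, CTRL 2, Emul 4 or Emul 5, 900 to 1267 of all genes were higher.

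No member passed an adjusted p under 0.05 in either limma fit, where 0.0343% of all rows of the table and 0.117% of all genes in the sums did. DESeq2 and edgeR on the sums gave no member at an adjusted p under 0.05 either, with 4 and 1 structural subunits at an unadjusted p under 0.05. Of all 15340 genes, 1081 were higher and 1257 lower at that unadjusted threshold by DESeq2, and 1092 and 1372 by edgeR. The study set a fold of 1.5 and a p under 0.05, described as a p-value in its methods and as a false discovery rate in a figure legend. Read as an unadjusted p under 0.05 with a change above 1.5-fold, this cutoff was passed by Ndufa9 alone in the table and by no member in the sums (0.685% of all rows and 0.469% of all genes).

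**Figure D1:**
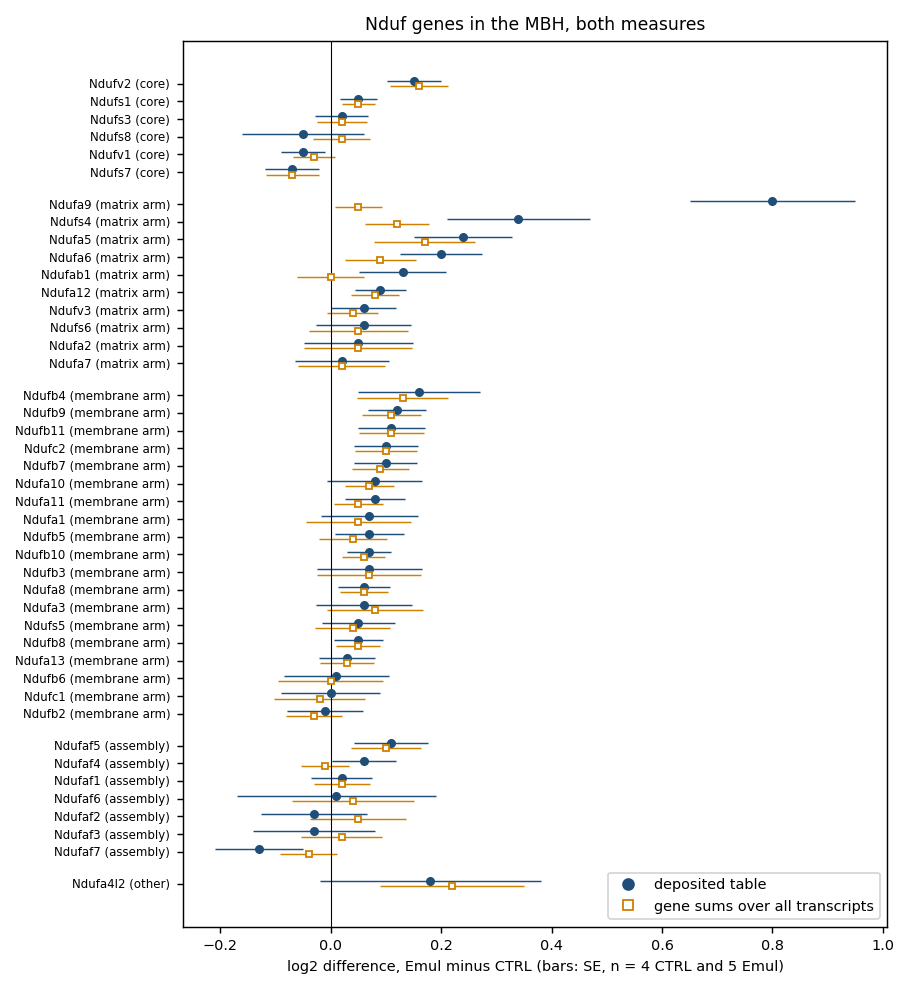
Log2 difference of each of 43 Nduf genes, Emul minus CTRL, in the deposited table (filled circles) and in the gene sums (open squares), with bars showing the SE (n = 4 CTRL and 5 Emul). Most points lie just right of 0, and Ndufa9 and Ndufs4 stand far out in the table only.

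The median of the structural subunits rested largely on Emul 2. This library had the highest value for 24 of 36 structural subunits in the table and for 30 of 36 in the sums, and its median deviation was 0.231 log2 in the table. The other 4 Emul libraries had medians from −0.058 to 0.031, and the CTRL libraries from −0.073 to 0.003, so these 2 ranges overlapped. The median log2 difference was 0.042 in the table and 0.027 in the sums without CTRL 3, and 0.092 and 0.079 without Emul 3. Without Emul 2 the median log2 difference was 0.015 in the table, with 20 of 36 subunits higher, and 0.005 in the sums, with 19 of 36 higher. With each library's trend over transcript length removed from the sums, the median was 0.003, again with 19 of 36 higher. The median over all genes in that fit was 0.004.

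**Figure D2:**
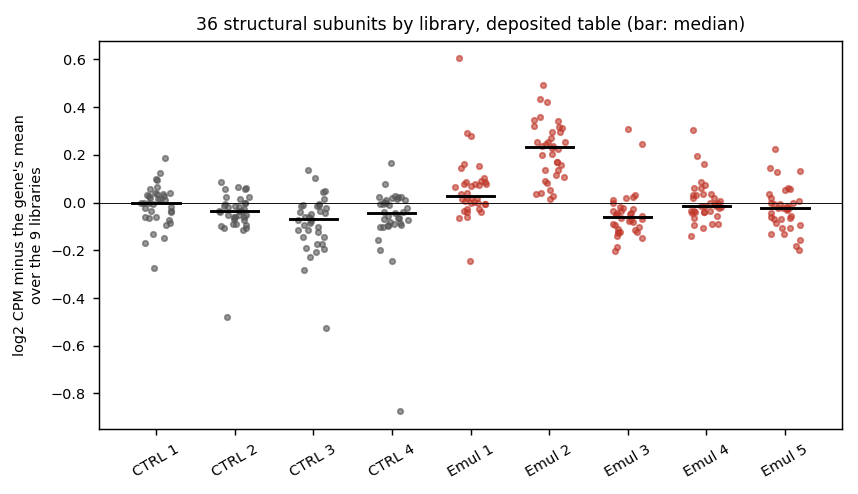
Deviation of each of the 36 structural subunits from its own mean over the 9 libraries in the deposited table (log2 CPM), with CTRL in grey, Emul in red and a bar at the median. The median of Emul 2 is 0.231, while those of the other libraries lie between −0.073 and 0.031.

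Summed over the structural subunits, TPM (transcript abundance per length, scaled to a fixed total in each library) was 7075 ± 93.4 in CTRL (SD, n = 4) and 6919 ± 382 in Emul (SD, n = 5). This total was thus 2.21% lower in Emul, although most log2 CPM differences were positive. TPM of mitochondrially encoded genes went from 140600 ± 13200 in CTRL to 177800 ± 11100 in Emul, without overlap, and these genes share the fixed TPM total. Over nuclear genes only, the structural subunits summed to 8359 ± 120 TPM in CTRL and 8550 ± 530 TPM in Emul, 2.29% higher. The values were 8463, 8425, 8191 and 8356 in CTRL and 8523, 9447, 8051, 8394 and 8337 in Emul, where again only Emul 2 lay far above the rest. Per length, Ndufb8, an accessory subunit of the membrane arm, had the highest level among the structural members (349 ± 8.5 TPM in CTRL, 338 ± 13 in Emul). Ndufb4 was listed lowest (36 ± 2.6 and 37.5 ± 4.7), a rank that depends on how its reads were split with Ndufb4c, which was listed at 226 ± 2.5 and 250 ± 21 TPM. The next lowest was Ndufs3 (74.2 ± 1.1 and 70.4 ± 2.7).

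The 7 core subunits carry the flavin, the iron-sulfur clusters and the ubiquinone site. Among them only Ndufv2 was higher at an unadjusted p under 0.05, in both fits (14.3% of 7). Over all features, 6.05% were higher in the table and 6.84% in the sums. Ndufv2 (chromosome 17, 66078638 to 66101559, minus strand) encodes the subunit that holds an iron-sulfur cluster next to the flavin-bearing Ndufv1. Its log2 CPM in the table was 6.87, 6.88, 6.85 and 6.84 in CTRL and 7.02, 7.18, 6.94, 6.92 and 6.98 in Emul. The lowest Emul library lay above the highest CTRL library. The log2 difference was 0.15 ± 0.049 (SE; unadjusted p = 0.012, adjusted p = 0.25 by limma). In the sums the values were 6.77, 6.76, 6.67 and 6.75 in CTRL and 6.91, 7.08, 6.81, 6.81 and 6.92 in Emul, again without overlap. The difference was 0.16 ± 0.053 (unadjusted p = 0.0084, adjusted p = 0.18 by limma-voom). Ndufv2 kept an unadjusted p under 0.05 under all 15 alternatives of the table and all 24 of the sums, those without Emul 2 included. Groups did not overlap for 2 structural subunits in the table, Ndufv2 and Ndufa9 (5.56% of 36), against a background of 5.35% of all rows. In the sums this held for Ndufv2 alone (2.78% of 36), against 6.6% of all genes.

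The other 6 core subunits did not pass the test in either fit, and 5 of them are given here. Ndufs1, the largest iron-sulfur subunit, differed by 0.05 ± 0.034 (SE) in the table and 0.05 ± 0.030 in the sums. Ndufs3, of the matrix arm that leads to ubiquinone, differed by 0.02 ± 0.048 and 0.02 ± 0.045. Ndufv1, which binds NADH and the flavin, was at −0.05 ± 0.040 and −0.03 ± 0.038, so that it and its partner Ndufv2 had differences of opposite sign. Ndufs7, which carries the last iron-sulfur cluster before ubiquinone, had the lowest difference of all structural subunits, at −0.07 ± 0.049 and −0.07 ± 0.048. Its table values ran from 5.69 to 5.84 in CTRL and from 5.60 to 5.78 in Emul. It passed an unadjusted p under 0.05, lower in Emul, in the sums with the length trend removed and in those scaled by library size alone. Ndufs8, another iron-sulfur subunit, was at −0.05 ± 0.11 in the table and 0.02 ± 0.052 in the sums.

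**Figure D3:**
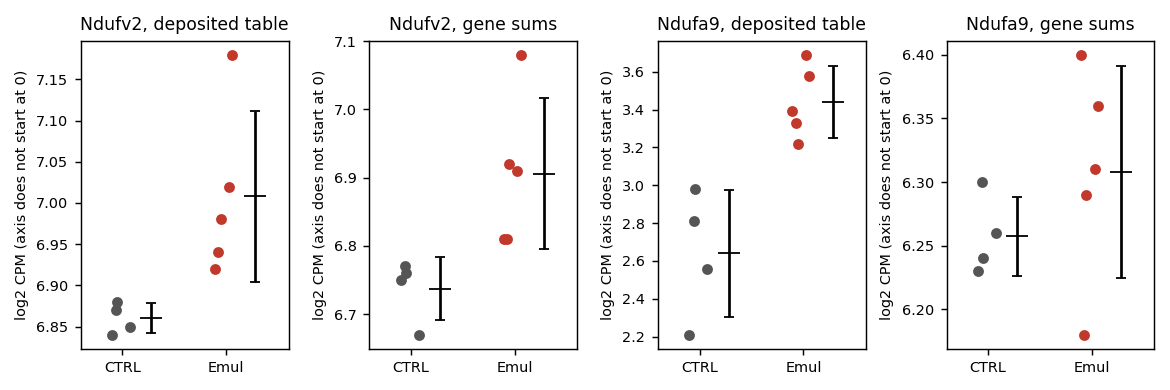
Log2 CPM of Ndufv2 and Ndufa9 in each CTRL (grey) and Emul (red) library, in the deposited table and in the gene sums, with the mean and SD beside the points (n = 4 and 5). Ndufv2 separates the groups in both measures, whereas Ndufa9 does so in the table only.

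All 10 accessory subunits of the matrix arm had a higher mean in Emul in the table. At an unadjusted p under 0.05, 4 (40.0%) were higher, against 6.05% of all rows: Ndufa9, Ndufs4, Ndufa5 and Ndufa6. As described below, the table covers Ndufa9, Ndufs4 and Ndufa6 only in part. In the sums 9 of 10 had a higher mean and none passed, against 6.84% of all genes that were higher. Ndufa9, a subunit at the junction of the arms, had table values of 2.81, 2.98, 2.56 and 2.21 in CTRL and 3.69, 3.58, 3.33, 3.39 and 3.22 in Emul. Every Emul library lay above every CTRL library. The log2 difference was 0.80 ± 0.15 (SE; unadjusted p = 0.00024, adjusted p = 0.11 by limma). The summed counts of the gene gave 6.30, 6.24, 6.26 and 6.23 in CTRL and 6.31, 6.36, 6.18, 6.40 and 6.29 in Emul. These overlapped, and the difference was 0.05 ± 0.042 (unadjusted p = 0.25). The 2 measures of Ndufa9 were thus 3.2 log2 apart in level over all libraries, and only the lower one differed between the groups.

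This gap goes with which transcripts the table covers. When only transcripts with an Ensembl number below 195750 were summed, and scaled by length, the result lay on average 0.0175 log2 from the table and 98.7% of values were within 0.1. With all transcripts the mean distance was 0.212 and 71% were within 0.1. For Ndufa9, 89.4% of counts were on transcripts above that number, chiefly Ndufa9-203, so the table value is close to that of Ndufa9-201 alone. Ndufs8 (84.8% of counts above the number) and Ndufs4 (75.5%) were covered in part as well, followed by the assembly factor Ndufaf7 (36.7%). Ndufaf2 (17.5%) and Ndufa6 (16.0%) came next. For Ndufa6 the other 84.0% were on Ndufa6-201, so its table value is close to that of this transcript alone. For 31 of the 44 members no counts were above it. Ndufa4 and Ndufb1-ps, absent from the table, had 99.4% and all of their counts above it.

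Ndufs4, an accessory subunit whose loss causes Leigh syndrome in people and a widely used mouse model of it, had table values of 3.24, 2.89, 3.42 and 3.17 in CTRL and 3.66, 3.57, 3.68, 3.53 and 3.17 in Emul. Emul 5 lay within the CTRL range. The difference was 0.34 ± 0.13 in the table (unadjusted p = 0.019, adjusted p = 0.29 by limma) and 0.12 ± 0.058 in the sums (unadjusted p = 0.053, adjusted p = 0.32). Ndufa5 had table values of 5.41, 5.49, 5.37 and 5.51 in CTRL and 5.74, 6.01, 5.55, 5.61 and 5.51 in Emul. Its lowest Emul value equals the highest CTRL value at this precision. It had a difference of 0.24 ± 0.089 (unadjusted p = 0.022, adjusted p = 0.30) and of 0.17 ± 0.091 in the sums. Ndufa6, a small subunit of the LYR family, had 5.83, 5.82, 5.80 and 5.76 in CTRL and 6.07, 6.23, 5.87, 5.81 and 6.06 in Emul. Only Emul 4 fell among its CTRL values. Its difference was 0.20 ± 0.074 (unadjusted p = 0.019, adjusted p = 0.29) in the table and 0.09 ± 0.065 in the sums. Ndufab1, the mitochondrial acyl carrier protein, was at 0.13 ± 0.078 in the table and at −0.00 ± 0.061 in the sums, and Ndufa12 at 0.09 ± 0.046 and 0.08 ± 0.044.

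Of the 19 accessory subunits of the membrane arm, 18 had a higher mean in Emul in the table and 16 in the sums, with median differences of 0.066 and 0.061. Ndufb9 alone was higher at an unadjusted p under 0.05 in the table (5.26% of 19), against 6.05% of all rows. None of the arm passed in the sums, where 6.84% of all genes were higher. The table values of Ndufb9 were 6.58, 6.51, 6.37 and 6.45 in CTRL and 6.62, 6.66, 6.52, 6.51 and 6.67 in Emul, and 2 Emul libraries fell within the CTRL range. The difference was 0.12 ± 0.052 (unadjusted p = 0.045, adjusted p = 0.36 by limma) and 0.11 ± 0.054 in the sums (unadjusted p = 0.063). Ndufb11, an X-linked member, was at 0.11 ± 0.061 and 0.11 ± 0.059, and Ndufb8 at 0.05 ± 0.044 and 0.05 ± 0.040. The differences of the arm ran from −0.01 to 0.16 in the table.

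The upper end of that range is Ndufb4, at 0.16 ± 0.11 in the table and 0.13 ± 0.083 in the sums, and it is uncertain for the reason shown by the sequences above. Ndufb4c took 67.6% to 73.7% of the counts of the pair in each library. In the sums Ndufb4c differed by 0.22 ± 0.071 (unadjusted p = 0.0085, adjusted p = 0.18 by limma-voom). With the counts of both added, a value chosen after these differences were seen, log2 CPM was 5.29, 5.26, 5.14 and 5.30 in CTRL and 5.52, 5.66, 5.34, 5.36 and 5.36 in Emul. The groups did not overlap, as they did not for 6.6% of all genes in the sums. The difference was 0.20 (two-sided exact permutation p = 0.024). Because Ndufb4c had already been seen to differ in the same libraries, this p cannot serve as separate support. How much of the pooled difference came from either locus cannot be told apart in these counts.

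None of the 7 assembly factors in the table passed an unadjusted p under 0.05, by limma in the table or by limma-voom, DESeq2 or edgeR in the sums. Over all features, 6.05% were higher and 7.42% lower by limma in the table, and 6.84% and 8.99% by limma-voom in the sums. A count of 0 among 7 assembly factors is thus near the background. The median differences were 0.006 in the table and 0.024 in the sums, and both turned negative under one scaling or another (−0.001 with mitochondrially encoded genes left out of the table, −0.006 with library size alone in the sums). Ndufaf7, a methyltransferase, had the lowest difference of all members in the table, −0.13 ± 0.080 (unadjusted p = 0.12, adjusted p = 0.48). Its values were 4.53, 4.46, 4.55 and 4.52 in CTRL and 4.58, 4.45, 4.38, 4.37 and 4.13 in Emul, where Emul 1 was above every CTRL library and the other 4 below. In the sums it was at −0.04 ± 0.052. Without Emul 1, Ndufaf7 passed in the table, at −0.18 (unadjusted p = 0.029). Ndufaf5, which hydroxylates Ndufs7, was at 0.11 ± 0.067 and 0.10 ± 0.064. Ndufaf4 was at 0.06 ± 0.058 and −0.01 ± 0.043, and Ndufaf2, a paralog of Ndufa12, at −0.03 ± 0.096 and 0.05 ± 0.087. The assembly factors were far less abundant than the subunits, with 239 ± 11.3 TPM in all in CTRL and 227 ± 9.6 TPM in Emul.

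Of the symbols that are not complex I members by function, Ndufa4l2, a hypoxia-inducible relative of Ndufa4, was low (0.64 ± 0.30 log2 CPM in CTRL and 0.82 ± 0.27 in Emul, SD), with a difference of 0.18 ± 0.20. Ndufa4, now counted as a subunit of complex IV, had 6.82, 6.80, 6.66 and 6.78 log2 CPM in CTRL and 6.92, 7.32, 6.82, 6.82 and 6.86 in Emul in the sums. Its difference was 0.18 ± 0.089 (unadjusted p = 0.063, adjusted p = 0.35), with Emul 2 far above the other Emul libraries. Among the complex I symbols outside the table, Ndufaf8, an assembly factor, was at 0.18 ± 0.087 in the sums. Ndufb1-ps, listed with the accessory subunits of the membrane arm but annotated as a long non-coding RNA, was at 0.22 ± 0.13.

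Because the 2 measures differed in the transcripts they covered, the use of each transcript within its gene was compared by diffSplice on the transcript counts, an analysis added after the data had been seen. Of 127 member transcripts in 33 genes, 4 (3.15%) passed an adjusted p under 0.05, against a background of 1.07% of all transcripts tested. They were Ndufa9-201 and Ndufa9-203, Ndufa6-201 and Ndufb5-208. No other Ndufa9 transcript was tested, so the usage values of this pair mirror each other (0.84 and −0.84 log2) and are a single result. These counts are kallisto's split of reads among overlapping transcripts, and the uncertainty of that split is not part of the test.

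Ndufa9-201 held 8.23, 9.58, 6.98 and 5.64% of the counts of its gene in CTRL and 15, 13.4, 12.7, 11.5 and 11.0% in Emul. The share was higher in every Emul library than in any CTRL library, with means of 7.61 ± 1.7% and 12.7 ± 1.6% (SD). Its usage differed by 0.84 log2 (adjusted p = 0.015 by diffSplice), and without CTRL 3 or CTRL 4 the adjusted p was 0.051 or 0.073. The main transcript Ndufa9-203 was at −0.02 ± 0.051 (SE) in the fit per transcript. The transcripts also differ in where they end, and the counts do not show from which part the reads came.

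Ndufa6-201, the protein-coding transcript of Ndufa6 (chromosome 15, 82350140 to 82354322, minus strand), held 78.8 to 81.5% of the gene's counts in CTRL and 85.5, 87.1, 84.5, 85.7 and 90.8% in Emul, without overlap. Its usage was 0.74 log2 higher in Emul (adjusted p = 0.011) and stayed past the threshold without each library in turn. Ndufa6-206, annotated as a retained intron, went the other way, from 7.65 ± 1.0% to 4.59 ± 1.3% (SD), with a usage adjusted p of 0.083. Ndufa6-202, a further retained intron, had 7.99 ± 0.67% in CTRL and 5.86 ± 0.81% in Emul (usage adjusted p = 0.46).

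Ndufb5-208 is a retained-intron transcript of the membrane-arm gene Ndufb5, 3127 bases in a single exon. It held 7.59, 8.29, 8.11 and 7.86% of the gene's counts in CTRL and 5.47, 5.06, 6.33, 3.95 and 4.15% in Emul. All Emul values lay below all CTRL values, and the usage was lower by −0.72 log2 (adjusted p = 0.043). This call was the least stable, with an adjusted p from 0.030 to 0.13 when single libraries were left out.

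**Figure D4:**
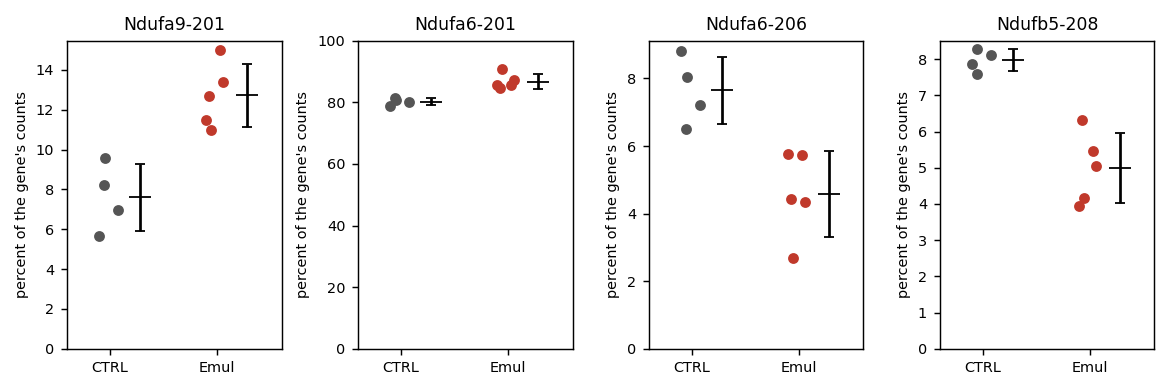
Share of the gene's estimated counts on 4 transcripts in each CTRL (grey) and Emul (red) library, in percent, with mean and SD (n = 4 and 5). Ndufa9-201 and Ndufa6-201 took a larger share in Emul, and the retained-intron transcripts Ndufa6-206 and Ndufb5-208 a smaller one.

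Over the 35 retained-intron transcripts of Nduf genes tested one by one, 6 (17.1%) were lower at an unadjusted p under 0.05, against 10.4% of all 8052 retained-intron transcripts, and 1 (2.86%, Ndufaf7-205) was higher, against 3.78%. The lower ones were Ndufa6-202, Ndufa6-206, Ndufa10-206, Ndufab1-204, Ndufab1-210 and Ndufb5-208. None passed an adjusted p under 0.05 in that limma-voom fit, in which no transcript of any gene did. The median difference was −0.02 log2 for the Nduf retained introns and −0.06 for all. All retained-intron transcripts together took 4.23 ± 0.0872% of counts in CTRL and 4.03 ± 0.17% in Emul (two-sided exact permutation p = 0.048). Ndufaf1, an early assembly factor, showed an exchange between transcripts that differ at the first exon. Ndufaf1-202 held 27.9 to 54.2% in CTRL and up to 20.4% in Emul, while Ndufaf1-201 held up to 25.7% in CTRL and 29.8 to 58.2% in Emul. Its usage adjusted p-values were 0.098 and 0.24, one of the pair was estimated at 0 counts in CTRL 3 and in Emul 1, and the gene's total differed by 0.02 ± 0.051.

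To set the Nduf genes beside the rest of the respiratory chain, the same fits were read for lists of the other complexes. All 7 mitochondrially encoded complex I subunits rose at an unadjusted p under 0.05 in both measures, with log2 differences of 0.28 to 0.61 in the table and a median of 0.342, and mt-Nd6 passed an adjusted p under 0.05 (0.34 ± 0.046, adjusted p = 0.035 by limma). The nuclear structural subunits had a median of 0.065 in the same fit. As TPM per library, the log2 ratio of the mt-Nd genes to the nuclear structural subunits was 2.912, 2.79, 2.759 and 2.989 in CTRL and 3.119, 3.054, 3.287, 3.068 and 3.174 in Emul, without overlap. Emul 2, which was highest for the nuclear subunits, had the lowest of the Emul ratios.

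The nuclear genes of the other complexes had medians of the same order as the Nduf genes in the table: 0.049 for complex II (4 genes), 0.025 for complex III (9), 0.081 for complex IV (10) and 0.05 for ATP synthase (15). At an unadjusted p under 0.05, Sdha of complex II (0.07 ± 0.032), Uqcrc2 of complex III (0.13 ± 0.031) and the ATP synthase genes Atp5f1 (0.14 ± 0.034), Atp5c1 (0.09 ± 0.031), Atp5h (0.12 ± 0.053) and Atp5o (0.11 ± 0.045) were higher. Atp5g2, which encodes a copy of the ATP synthase c subunit, was lower (−0.32 ± 0.13), and no nuclear complex IV gene passed in the table. In the sums, Uqcrc2 (0.09 ± 0.034), Cox7b of complex IV (0.22 ± 0.091), Atp5c1 (0.10 ± 0.031) and Atp5f1 (0.13 ± 0.036) were higher and Atp5g2 was lower (−0.36 ± 0.14). The background at this threshold was 6.05% higher and 7.42% lower over all rows of the table, and 6.84% and 8.99% over all genes in the sums. Of 9 complex I assembly factors with other names, none passed in the table (median −0.016), nor did any of 11 in the sums. Of 8 regulators of nuclear respiratory genes, among them Nrf1, Gabpa and Ppargc1a, none passed in the table, and Yy1 alone was lower in the sums (−0.13 ± 0.038).

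**Figure D5:**
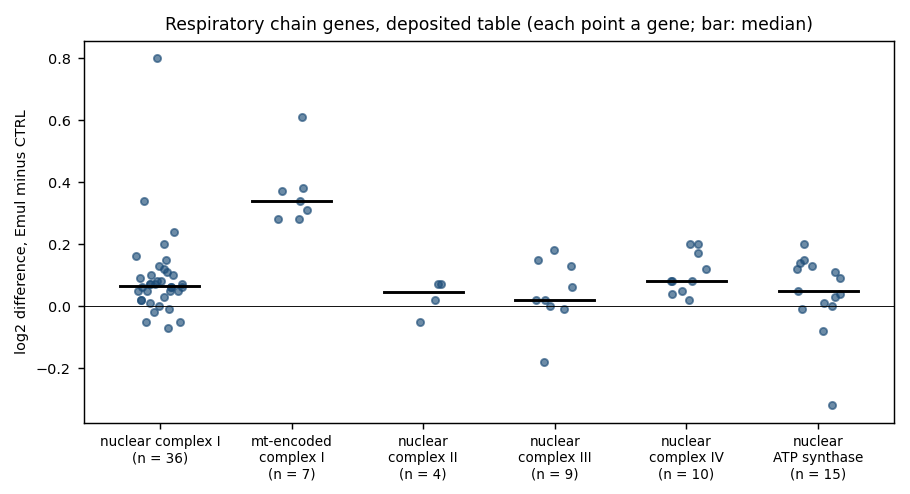
Log2 difference, Emul minus CTRL, of each respiratory chain gene in the deposited table, grouped by complex and genome, with a bar at the median. The 7 mt-encoded complex I genes lie between 0.28 and 0.61, above most nuclear genes, whose medians lie between 0.025 and 0.081.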

How the data were processed

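RNA of 9 MBH samples (4 CTRL, 5 Emul) was sequenced by the authors. Per the labels, FastQC 0.11.9, kallisto 0.46.1, edgeR 3.40.1 and mm10 were used. For each library the authors deposited estimated counts and TPM of 119414 transcripts, and a log2 CPM table of 14593 rows, of which 1 has no name and was left out. How the table was made from the transcripts is not given in the sources used here.

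The table was fitted with limma 3.58.1 (lmFit, eBayes with trend, R 4.3.3), without covariates and without a pseudocount. For the second measure, transcripts were matched to GENCODE M21 genes (97.8% matched; 1.20% to 1.27% of counts did not and were left out). Estimated counts were summed per gene, kept at CPM above 1 in at least 4 libraries (15340 genes), scaled by TMM and fitted with limma-voom. Single log2 CPM values used a prior count of 2. Rounded sums entered edgeR 4.0.16 and DESeq2 1.42.0. Transcripts were filtered alike and fitted with limma-voom (39840) and diffSplice (34224). Adjusted p-values are Benjamini-Hochberg over all features. The limma, limma-voom, edgeR, DESeq2 and diffSplice fits were run on simulated counts of constant dispersion. These counts held no library deviating like Emul 2 and no uncertainty in the split of reads. The permutation tests were not simulated. Exact permutation tests were two-sided over 126 splits, with a smallest p of 0.0079. The libraries held 28245360 to 46067534 counts, and the SE covers the spread between libraries.

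Members and lists were chosen with earlier results of these data known. Genes were named by a rule: core subunits, the smallest p-values, the extreme differences, the largest gaps between measures, the extreme TPM levels and members with 1 far library. The transcript fits and the pooled Ndufb4 value were added after seeing the data. The values of 1 member are not reported here; it is included in the counts and medians over the lists.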

Additional observations from a re-analysis of the deposited data

Results flagged for a closer look

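In 174 groups of libraries (43 members in each measure and the summed TPM, CTRL and Emul apart), 12 had 1 library farther from the rest than Dixon's 95% limit. Chance alone flags about 1 in 20, here 8.7.

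Emul 2 was the far library in 4 of them, each time as the highest: Ndufa2 at 5.73 log2 CPM in the table against 5.18 to 5.28 in the other Emul libraries and at 5.61 in the sums against 5.05 to 5.16, Ndufa3 at 5.96 in the table against 5.49 to 5.63, and Ndufb6 at 5.55 in the table against 5.06 to 5.17. These are short accessory subunits, and none of them passed the test between the groups. Emul 5 was the highest for Ndufa10 in the table, at 7.02 against 6.74 to 6.82.

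CTRL 3, the shallowest library, was the lowest for Ndufa1 in the sums (4.45 against 4.77 to 4.80) and for Ndufs8 in the sums (5.39 against 5.51 to 5.52). It was the highest for Ndufaf6 in the table (3.37 against 2.54 to 2.64), for Ndufaf7 in the sums (5.06 against 5.00) and for Ndufb4 in the sums (3.52 against 3.48). CTRL 2 was the highest for Ndufb10 in the table (6.24 against 6.10 to 6.12), and CTRL 1 for Ndufb2 in the table (5.88 against 5.84). Several of these gaps are wide only in proportion to a narrow group, as for Ndufaf7, Ndufb4 and Ndufb2.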

How the results depend on the processing

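The median log2 difference of the structural subunits was positive under every alternative run. It ran from 0.015 to 0.092 in the table and from 0.005 to 0.079 in the sums when single libraries were left out. With the length trend removed from the sums it was smaller than these, and below the median of 0.004 over all genes in that fit. The count of structural subunits at an unadjusted p under 0.05 moved more. In the table it was 6, between 4 and 8 without single libraries, and 1 at a threshold of 0.01. The share of all rows called in either direction was 13.5%, 10.8% to 14.7% and 4.08% in these fits. In the sums it was 1, and between 1 and 10 without single libraries (10 without Emul 3 and 2 without CTRL 1, CTRL 2, Emul 4 or Emul 5). It was 4 with DESeq2, 4 with the GC trend removed, and 3 with the length trend removed (Ndufv2 higher, Ndufc1 and Ndufs7 lower). It was 2 with lengthScaledTPM, 2 with library size alone and 2 with sample quality weights. With only the transcripts below the Ensembl number limit it was 4, and 5 when these were scaled by length. Ndufa5, added by that scaling, had no counts above the limit and was also called with lengthScaledTPM. Over all genes, 517 to 1267 were higher and 1062 to 2248 lower in these fits of the sums. The causes of the shifts in the count were not tested. With replicate number as a block (replicate block), the count was 6 in the sums and 7 in the table. Over all features, 839 of 15340 genes in the sums and 687 of 14592 rows of the table were higher with the block. The deviations of same-numbered libraries had correlations of −0.16 to 0.02. Whether the numbers stand for a shared batch was not tested. The count of assembly factors was 0, and 0 to 1 in the table without single libraries (Ndufaf7, without Emul 1). Ndufb9 fell short of the threshold in the table under 8 of 15 alternatives, and Ndufa5 and Ndufs4 under 1 each. Over all rows, recentring the table moved the share of calls that were higher from 44.9% to 56.3%, and library size alone moved it in the sums from 43.2% to 18.7%. The number of member transcripts with changed usage was 4, the mirrored Ndufa9 pair included, and 2 to 4 without single libraries. It was 2 without CTRL 3 or CTRL 4, where the Ndufa9 pair fell short. It was 2 with CPM above 5, where Ndufa6-201 could not be tested, and 5 with the replicate block. Depth limits minor transcripts such as Ndufa9-201 (152.6 to 470.6 counts a library) more than gene totals. No pseudocount alternative was run for the table, which is on a log2 scale.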
